A study of Mus musculus with 18 samples.

Results

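The Sox genes Sox1, Sox2, Sox3, Sox4, Sox6, Sox8, Sox9, Sox11 and Sox21, which encode transcription factors of neural progenitors and their progeny, were followed across 4 RNA-seq comparisons of neonatal mouse forebrain. They were chosen by name, and all 9 were found among the 23138 named genes of the hippocampal table, the 23398 of the neurosphere table and the 54429 of each of the other tables. Levels are given in FPKM, fragment counts scaled to transcript length and to the size of the library. All samples were taken from mice at postnatal day 0. The hippocampal comparison held 3 control libraries (Kdm2b fl/+ or Kdm2b fl/fl, not told apart by the labels) and 3 cKO libraries (Kdm2b Emx1-delta-CxxC). The neurosphere comparison held 2 control and 2 cKO libraries of the same genotypes, made from hippocampal progenitors that had been passaged in FGF2 and EGF as floating spheres. Cortices of those genotypes gave 2 libraries each, and hippocampi of Rnf2 fl/+ or Rnf2 fl/fl controls and of Rnf2 Emx1-cKO mice gave 2 each. The Kdm2b cKO removes only the exon of the CxxC zinc finger, and Emx1-Cre recombines in the dorsal forebrain lineage and not in the thalamus, so cells of other origin in the dissected tissue keep an intact gene. Nothing in the labels says whether a library is 1 animal or a pool, or whether the neurosphere libraries were separate cultures, so p-values measure only the spread between libraries, which may be technical.

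Sox proteins bind DNA through a shared HMG box and are sorted into groups by its sequence. Sox1, Sox2 and Sox3 (SoxB1) keep neural progenitors undifferentiated, and Sox21 (SoxB2) counters them. Sox4 and Sox11 (SoxC) act in newborn neurons, Sox6 (SoxD) lacks an activation domain of its own and works with other factors, and Sox8 and Sox9 (SoxE) act in glia, Sox9 also in neural stem cells. KDM2B brings a variant Polycomb complex to CpG islands through the CxxC zinc finger, and RNF2 is a catalytic subunit of Polycomb complexes.

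The Kdm2b level did not test the deletion, because the gene's remaining exons are still counted: it was 28.1 to 31.9 FPKM in control and 26.2 to 28.2 in cKO hippocampi, and 21.9 to 22.2 and 22.5 to 23.7 in neurospheres. Rnf2 was at 30.8 and 32.3 FPKM in its controls and at 27.8 and 28.5 in its cKO libraries, so most of its transcript level remained. Which exons the Rnf2 deletion removes is not given in the sources used here, and this level does not check it. Reads recovered from the FPKM steps came to 18480500 to 21905200 per cortical library and 14654900 to 16334400 per Rnf2 library, while the depth of the hippocampal and neurosphere libraries is unknown. Neurosphere control 1 stood apart, with 29.3% of its FPKM on entries that name no gene, against 0.876% to 1.95% in the other neurosphere libraries. Of the FPKM on its named entries alone, 22.6% was on Mir6236.

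All 9 genes are protein-coding, and 6 of them consist of 1 exon in the annotation, whereas Sox8 has 2 or 3, Sox9 has 3 and Sox6 up to 17. In GRCm38, Sox1 (ENSMUSG00000096014) lies on chromosome 8 at 12395295 to 12400126, Sox2 (ENSMUSG00000074637) on chromosome 3 at 34650405 to 34652461, and Sox3 (ENSMUSG00000045179) on chromosome X at 60891366 to 60893430. Sox21 (ENSMUSG00000061517) lies on chromosome 14 at 118233232 to 118237030, Sox8 (ENSMUSG00000024176) on chromosome 17 at 25565892 to 25570686 and Sox9 (ENSMUSG00000000567) on chromosome 11 at 112782224 to 112787760. Sox4 (ENSMUSG00000076431) is on chromosome 13 at 28948919 to 28953713, Sox11 (ENSMUSG00000063632) on chromosome 12 at 27334264 to 27342574, and Sox6 (ENSMUSG00000051910) on chromosome 7 at 115470872 to 116038796. Sox1 and Sox2 lie inside longer non-coding genes of the same strand, Sox1ot and Sox2ot. Sox4, Sox6, Sox8 and Sox21 overlap non-coding genes of the opposite strand, and since the sources used here do not state that counting used strand, reads in those stretches cannot be assigned to 1 gene.

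Promoters of 3 genes are printed because the zinc finger lost in the Kdm2b cKO recognizes unmethylated CG dinucleotides, and because Sox1 and Sox21 rose in cKO hippocampi and in cKO neurospheres while Sox8 fell in neurospheres. Each is the 250 bases before the RefSeq start of the gene (GRCm38.p6), given 5′ to 3′ on the gene's strand, with every CG in capitals. The positions are chr8:12395269-12395518 (plus strand) for Sox1, chr14:118237031-118237280 (minus strand) for Sox21 and chr17:25570687-25570936 (minus strand) for Sox8. RefSeq starts can differ from the annotation given above. There Sox1 starts at 12395295, so most of its printed window lies inside the annotated gene. The Sox2 window counted below ends at 34649994, before the annotated start at 34650405.
Sox1: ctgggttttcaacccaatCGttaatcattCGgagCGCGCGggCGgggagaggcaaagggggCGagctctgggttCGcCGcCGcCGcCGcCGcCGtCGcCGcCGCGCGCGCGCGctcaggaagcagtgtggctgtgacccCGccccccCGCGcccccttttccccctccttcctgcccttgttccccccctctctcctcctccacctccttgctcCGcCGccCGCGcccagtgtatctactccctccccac
Sox21: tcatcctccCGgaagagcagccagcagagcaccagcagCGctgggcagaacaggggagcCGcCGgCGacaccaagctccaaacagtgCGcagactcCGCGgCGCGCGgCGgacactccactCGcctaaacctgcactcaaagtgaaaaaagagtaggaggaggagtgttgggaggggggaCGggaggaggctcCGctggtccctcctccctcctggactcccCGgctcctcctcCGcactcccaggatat
Sox8: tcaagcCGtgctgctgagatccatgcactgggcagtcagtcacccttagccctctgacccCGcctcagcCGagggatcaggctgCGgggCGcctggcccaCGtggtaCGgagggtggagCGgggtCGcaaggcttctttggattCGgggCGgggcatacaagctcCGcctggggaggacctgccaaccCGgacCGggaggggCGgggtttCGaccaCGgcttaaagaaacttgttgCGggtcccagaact
The CG motif reads the same on both strands and was found in 92.1% of the 32851 mouse windows of this length, with a median of 6 per window. Sox1 held 29 CG, a number reached by 6.78% of all windows, and Sox2 held 27, reached by 8.56%. Sox8 held 18 (21.7% of windows), Sox21 and Sox11 held 17 each (23.5%) and Sox4 held 11 (35.6%). The 6 annotated Sox6 windows held 1 to 10. RefSeq windows were at hand for 7 of the 9 genes, not for Sox3 and Sox9. Whether the number of CG goes with the direction or size of a change was not tested. Binding and methylation at these sites were not analysed here.

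In control hippocampi the SoxC genes stood highest. Sox4 averaged 120 ± 6.2 FPKM (SD, n = 3) and Sox11 88.9 ± 2.0, followed by Sox2 at 37.9 ± 1.5, Sox1 at 16.9 ± 2.1, Sox9 at 10.3 ± 0.27, Sox8 at 8.07 ± 1.18, Sox3 at 6.82 ± 0.91, Sox6 at 4.95 ± 0.83 and Sox21 at 4.79 ± 0.53. Among neighbours in that order, Sox8 and Sox3 overlapped between libraries, as did Sox6 and Sox21, and the other neighbours did not. Control cortices put Sox11 first (203 ± 10.2 FPKM, n = 2) and Sox4 second (177 ± 9.2), with Sox2 at 31.8 ± 1.2, and Sox8, Sox21 and Sox6 together at the bottom with overlapping neighbours between 3.94 and 5.04 FPKM. The Rnf2 control hippocampi had the same leading genes, Sox11 at 136 ± 31.5 and Sox4 at 88.5 ± 14.6. Each table was normalized separately and the tables differ in their gene models, so no level was tested between tables.

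Control neurospheres showed another order. Sox2 led at 243 ± 19.7 FPKM (SD, n = 2), then came Sox4 at 190 ± 10.3, Sox8 at 116 ± 2.1, Sox3 at 109 ± 2.0, Sox9 at 74.2 ± 0.48, Sox21 at 49.4 ± 4.3 and Sox6 at 31.5 ± 1.3. Sox1 (24.2 ± 0.94) and Sox11 (23.7 ± 0.98) closed the order with overlapping libraries. Shares within a library do not depend on the scaling between libraries. SoxC genes made up 68.4% to 71.5% of the summed FPKM of the 9 genes in control hippocampi and 23.6% to 26.1% in control neurospheres, whereas SoxE genes made up 5.78% to 6.83% and 21.6% to 22.5%.

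**Figure D1:**
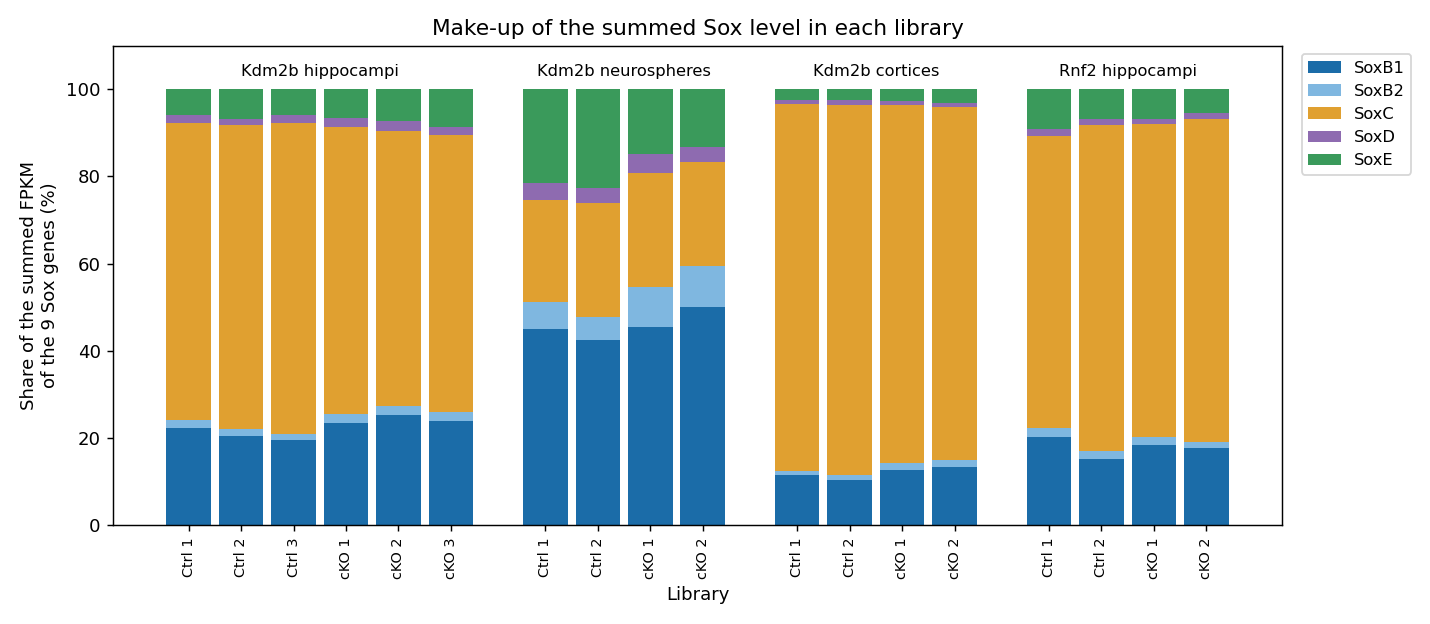
Stacked bars give the share (%) of each Sox group in the summed FPKM of the 9 Sox genes (highest entry of each), with 1 bar per library, for the 4 comparisons. SoxC genes fill 63.1% or more of every tissue library and at most 26.1% of every neurosphere library, and the SoxE share of neurospheres is 21.6% and 22.5% in controls against 14.8% and 13.1% in cKO.

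Deletion of the Kdm2b CxxC exon was accompanied by higher levels of progenitor Sox genes in the hippocampus. Calls required that log2(FPKM + 1) differed by more than 0.4 between the groups (the log2 fold change) with an unadjusted p under 0.05 by limma. Sox9, Sox1, Sox6 and Sox21 were called higher (4 of 9), and none was called lower. Over all 13446 genes tested, 3.89% were called higher and 2.25% lower. All 4 called genes also had an adjusted p under 0.05, and no member passed an unadjusted p of 0.05 in the lower direction. In bulk tissue, more cells of a type cannot be told from more RNA per cell.

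Sox9, which marks neural stem cells and specifies glia, rose most among the 9 genes. Its control libraries held 10.1, 10.6 and 10.3 FPKM and its cKO libraries 15.9, 17.2 and 18.4, so that the lowest cKO value lay far above the highest control. The log2 fold change was 0.68 ± 0.07 (SE, adjusted p = 0.00151). Sox8, the other SoxE gene, was not called: its controls held 7.10, 9.38 and 7.72 FPKM and its cKO libraries 7.53, 7.03 and 9.49. The groups overlapped throughout, with a log2 fold change of -0.01 (95% interval -0.29 to 0.27). The ratio of Sox8 to Sox9 was 0.703 to 0.882 in controls and 0.410 to 0.517 in cKO libraries, without overlap.

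Of the 4 SoxB genes 2 were called higher and the other two lay under the fold threshold. Sox1, a progenitor gene that is lost as neurons form, held 19.1, 14.9 and 16.8 FPKM in controls and 24.9, 27.0 and 23.4 in cKO, a log2 fold change of 0.55 ± 0.09 (adjusted p = 0.00931). Sox21, the SoxB2 antagonist, held 5.33, 4.75 and 4.27 FPKM in controls and 7.49, 6.83 and 6.30 in cKO (0.45 ± 0.10, adjusted p = 0.0278). Neither gene's groups overlapped. Sox2, the most widely used marker of neural stem cells, held 39.0, 38.4 and 36.2 FPKM in controls and 48.4, 48.9 and 46.1 in cKO. The difference of 0.33 ± 0.05 (adjusted p = 0.00726) was smaller than the fold threshold, although the groups did not overlap. Sox3 held 7.87, 6.36 and 6.24 against 10.7, 8.56 and 8.44 FPKM, also without overlap, and its change of 0.39 ± 0.11 (adjusted p = 0.0693) lay just under the fold threshold. It was called with 0.1 added to FPKM instead of 1 (0.43) and with libraries rescaled to equal FPKM totals (0.41). Sox3 is X-linked, and the cKO library with the highest Sox3 (cKO 1) was the only one of the 6 hippocampal libraries with Xist, the transcript of the inactive X, at 154 FPKM against at most 0.0732 in the others. Without that library the Sox3 change was 0.29. Over the 6 fits that left out 1 library it ranged from 0.29 to 0.48, and it passed the threshold in 3 of them, without control 1 (0.48), cKO 2 (0.43) or cKO 3 (0.44).

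Sox6, whose product partners other Sox factors in precursors, held 5.40, 3.99 and 5.46 FPKM in controls and 7.64, 8.17 and 6.46 in cKO, without overlap (0.51 ± 0.12, adjusted p = 0.0390). The lowest control library set part of this: without control 2 the log2 fold change was 0.38 and under the fold threshold. Sox21 likewise fell under it without control 3 (0.38) or cKO 1 (0.39). Neither SoxC gene of newborn neurons was called. Sox11 held 87.4, 88.1 and 91.1 FPKM in controls and 97.4, 93.0 and 100.1 in cKO, groups that did not overlap (0.12 ± 0.05, adjusted p = 0.151). Sox4 held 116 to 127 FPKM in controls and 107 to 140 in cKO (0.02 ± 0.09, adjusted p = 0.939). The groups did not overlap for 7 of the 9 genes and for 29.2% of all genes tested. Within the summed Sox level the SoxC share was 68.4% to 71.5% in controls and 63.1% to 65.9% in cKO hippocampi, and the SoxB1 share 19.4% to 22.2% and 23.4% to 25.2%. Neither share overlapped between the groups.

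**Figure D2:**
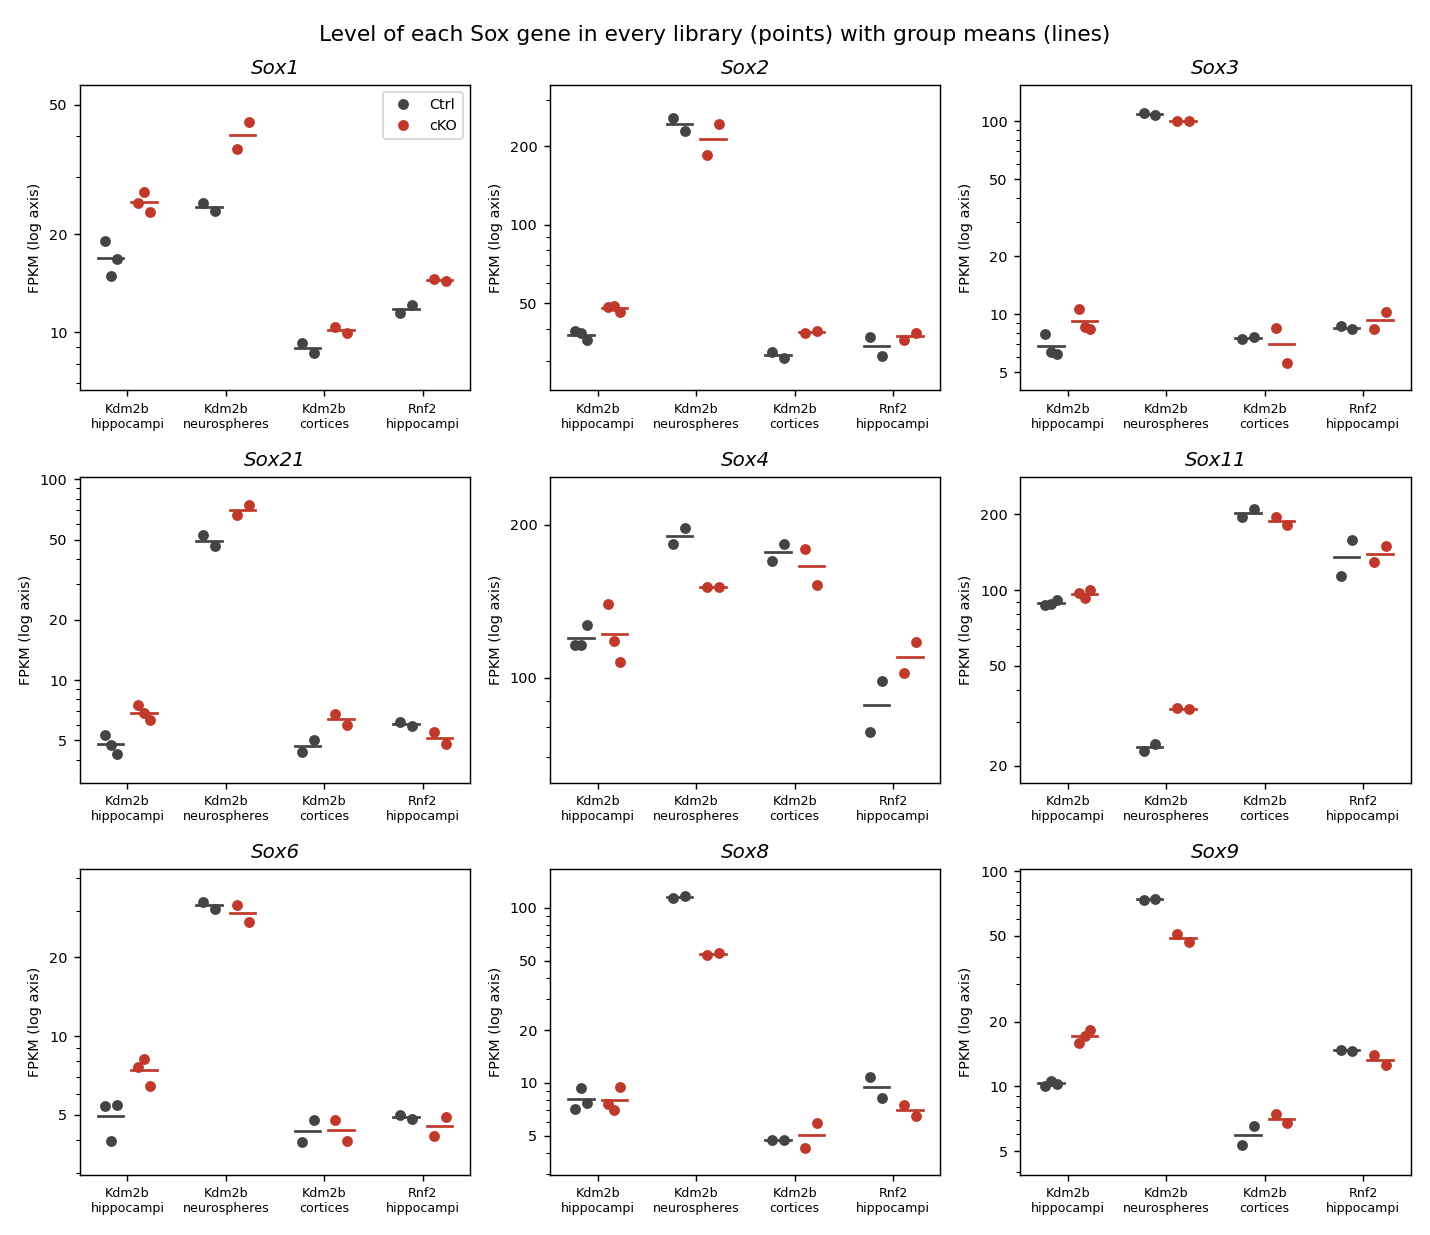
Points give the FPKM of each Sox gene in every library on a log axis, controls in dark grey and cKO in red, for the 4 comparisons, and short lines give group means. In the hippocampi all 3 cKO points of Sox9 (15.9 to 18.4) lie above all 3 controls (10.1 to 10.6), while in neurospheres the cKO points of Sox8 (53.6 and 55.1) and Sox9 (46.6 and 51.0) lie below the controls.

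Other genes of hippocampal radial glia and neural stem cells rose beside the Sox genes. Of a list of 16 such genes, 7 were called higher and 0 lower, and their median log2 fold change was 0.32 against 0.01 over all genes. Pax6, a transcription factor of radial glia, went from 5.48 ± 0.31 to 10.6 ± 1.46 FPKM (log2 fold change 0.83, adjusted p = 0.00310), Gli3, a mediator of Hedgehog signaling, from 3.51 ± 0.32 to 6.85 ± 1.51 (0.78, adjusted p = 0.0132), Hes1, a Notch target, from 4.30 ± 1.08 to 6.96 ± 0.93 (0.60, adjusted p = 0.0442) and Prom1, a stem cell surface protein, from 7.15 ± 0.56 to 10.9 ± 1.33 (0.55, adjusted p = 0.0131). Among the POU factors that bind DNA with Sox proteins, Pou3f1 fell from 11.9 ± 3.27 to 4.30 ± 2.63 FPKM (-1.36, adjusted p = 0.0280), and the other 3 were not called. Of 8 early neuronal genes, Nhlh1, a factor of newborn neurons, was called, from 6.76 ± 0.59 to 10.1 ± 1.15 FPKM (0.51, adjusted p = 0.0158). Of the other 7 early neuronal genes, which did not pass the fold threshold, 6 had log2 fold changes from -0.28 to -0.04 and Neurod1 had 0.29. Stmn2, a cytoskeletal regulator of neurons, held 603 ± 8.9 FPKM in control and 498 ± 6.3 in cKO hippocampi, without overlap (-0.28, adjusted p = 0.0134). The neuronal markers Map2 (-0.21, adjusted p = 0.0276), Syt1 (-0.27, adjusted p = 0.0144) and Snap25 (-0.20, adjusted p = 0.0712) also had lower values in all cKO libraries and lay under the fold threshold, and the sum of 5 neuronal markers was 1355 to 1483 FPKM in control and 1062 to 1322 in cKO. None of 3 NFI factors passed the fold threshold.

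Marker lists of other cells moved in part with these results. Of 4 thalamic markers tested, Lhx9 and Tcf7l2 were called higher, and the summed level was 25.4 to 28.8 FPKM in control and 36.3 to 39.1 in cKO hippocampi. Among 5 microglial markers, Cx3cr1 and C1qa were called higher, and the sum went from a range of 26.6 to 32.2 to one of 34.0 to 44.4. Of 3 choroid plexus markers tested Ttr and Clic6 were called higher. The sum of the 5 listed genes varied within groups, at 5.21 to 16.3 FPKM in controls and 6.84 to 59.5 in cKO. Of 7 astrocyte markers Aqp4 and S100b were called lower and none higher, with sums of 229 to 261 and 225 to 316, and the oligodendrocyte lineage, vessel, meningeal, hippocampal, neocortical and neuronal lists had no call. The part of these markers in the Sox values was not tested.

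In neurospheres the loss of the CxxC exon went with a different Sox profile. Sox1, Sox11 and Sox21 were called higher (3 of 9), and Sox8 and Sox9 were called lower (2 of 9). Over the 12227 genes tested 11.4% were called higher and 13.2% lower, so many genes differed in these cultures. All 5 called members also had an adjusted p under 0.05. The groups did not overlap for 7 of 9 genes, against 66.4% of all genes, which with 2 libraries per group is a weak criterion.

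Sox8 showed the largest change of the 9 genes in any comparison. The controls held 114 and 117 FPKM and the cKO libraries 53.6 and 55.1, which is a difference of -1.08 ± 0.08 (SE, adjusted p = 0.00163) in log2(FPKM + 1). Sox9 went from 73.9 and 74.5 to 51.0 and 46.6 FPKM (-0.60 ± 0.08, adjusted p = 0.00736). The replicates of both genes differed far less than the groups. When libraries were rescaled to the same FPKM total, which shifted the median log2 fold change of all neurosphere genes by 0.105, Sox9 lost its call (-0.48) and Sox8 kept it. That scaling also moved the higher share of all calls from 46.2% to 60.2%. It used the total of named entries, of which Mir6236 held 22.6% in control 1. With size factors from median ratios between libraries, which shifted the median of all genes by 0.011, Sox8 and Sox9 both kept their calls. The SoxE share of the summed Sox level, which no scaling touches, was 21.6% and 22.5% in controls and 14.8% and 13.1% in cKO neurospheres.

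Sox1 rose from 24.9 and 23.5 to 36.4 and 44.1 FPKM (0.71 ± 0.11, adjusted p = 0.00992), and Sox21 rose from 52.5 and 46.4 to 66.4 and 74.0 (0.50 ± 0.10, adjusted p = 0.0223). Both genes were thus called higher in tissue and in culture. Sox11 rose from 23.0 and 24.4 to 33.9 and 33.6 FPKM (0.50 ± 0.08, adjusted p = 0.0104), while Sox4, its SoxC partner, went from 183 and 198 to 151 and 151 (-0.33 ± 0.09, adjusted p = 0.0541) and was not called. The ratio of Sox11 to Sox4 was 0.123 and 0.125 in controls and 0.222 and 0.225 in cKO. Sox2 held 257 and 229 against 184 and 243 FPKM (-0.20 ± 0.16), with overlapping groups. Its ratio with Sox1 did not overlap, since Sox1 stood at 0.0968 and 0.103 of Sox2 in controls and at 0.182 and 0.198 in cKO. Sox3 held 111 and 108 against 101 and 99.9 FPKM (-0.13 ± 0.08) and was not called, in libraries of which cKO 1 held Xist at 0.361 FPKM and the other 3 at 140 to 175. Sox6 held 32.4 and 30.6 against 31.7 and 27.2 FPKM (-0.10 ± 0.10).

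Marker genes of astrocytes and of the oligodendrocyte lineage, its precursors included, fell in the same cultures. All 7 astrocyte markers were called lower, and their sum went from 433 to 452 FPKM in controls to 128 to 132 in cKO. Of 7 oligodendrocyte lineage markers, 5 were called lower: Gpr17, a receptor of differentiating oligodendrocyte cells, went from 99.8 to 5.33 FPKM and Pdgfra, a receptor of their precursors, from 44.9 to 11.5, while Olig1 and Olig2 were not called and the sum of the list was 2521 to 2576 in controls and 2455 to 2519 in cKO. Sox10, the third SoxE gene and a regulator of myelin genes, fell from 10.8 ± 2.0 to 4.77 ± 0.79 FPKM (-1.03, adjusted p = 0.00985). The part of these cells in the Sox8 and Sox9 values was not tested. Radial glial genes split, with 3 of 16 called higher and 5 lower. Vim, an intermediate filament, rose from 1255 ± 49 to 2886 ± 662 FPKM, Prom1 from 2.39 ± 0.35 to 6.37 ± 0.22 and Nes from 91.8 ± 3.4 to 172 ± 33.3, while Gfap fell from 24.5 to 5.13. Hes5 (-0.94), Id4 (-0.91), Hes1 (-0.89) and Emx2 (-0.47) fell as well, of which Hes1 and Id4 had risen in the hippocampi. Pou3f1 fell here too, from 12.5 ± 0.78 to 5.13 ± 0.74 FPKM (-1.14, adjusted p = 0.00328), and Nfib, an NFI factor, rose from 33.0 ± 3.0 to 43.8 ± 1.7 (0.40, adjusted p = 0.0337). Of 4 early neuronal genes tested, Dcx (-2.21) and Tubb3 (-0.42) fell and Neurod1 rose (0.94).

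**Figure D3:**
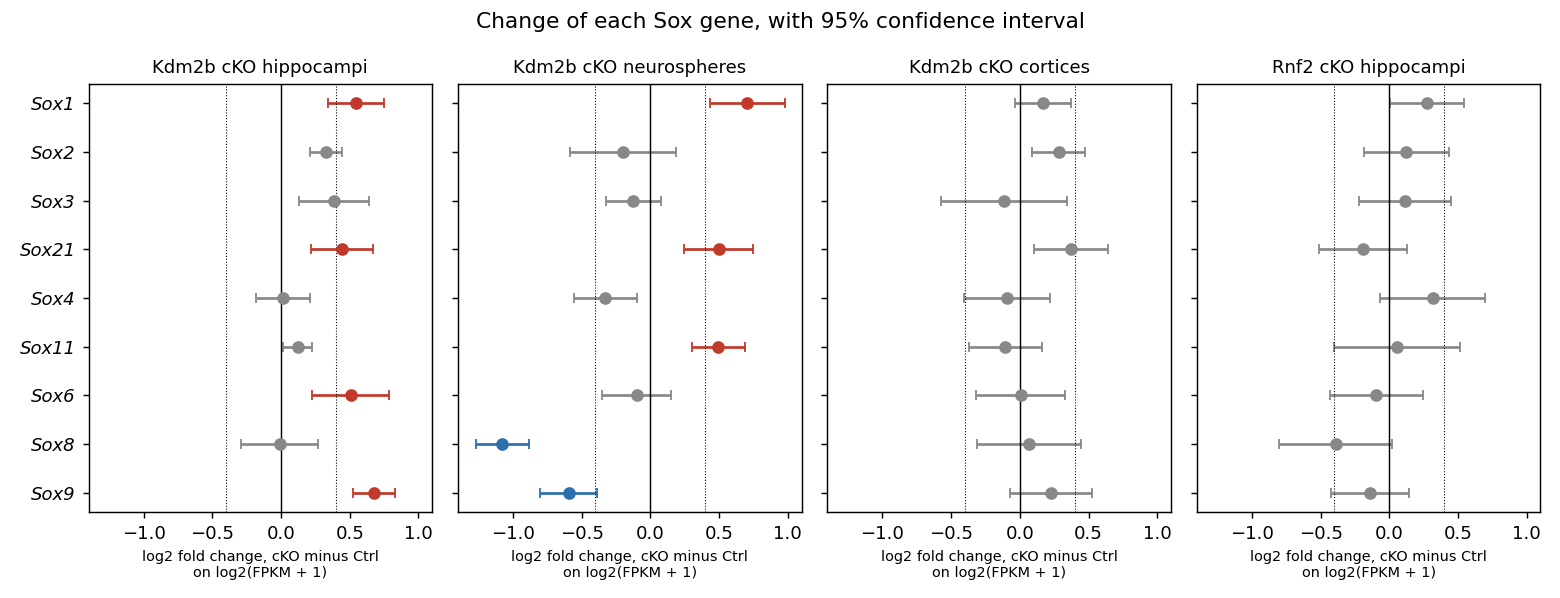
Points give the log2 fold change (cKO minus control, on log2(FPKM + 1)) of each Sox gene with its 95% confidence interval in the 4 comparisons, red where called higher, blue where called lower and grey otherwise, with dotted lines at the fold threshold of 0.4. Sox1 and Sox21 are red in hippocampi and neurospheres, Sox9 is red at 0.68 in hippocampi and blue at -0.60 in neurospheres, and no gene is called in cortices or Rnf2 hippocampi.

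In Kdm2b cKO cortices no Sox gene was called by limma in either direction, against 4.73% of 15691 genes called higher and 2.28% lower. At an unadjusted p of 0.05 there were 2 genes, Sox21 and Sox2. Sox21 held 4.38 and 5.04 FPKM in controls and 6.78 and 5.98 in cKO, a change of 0.37 ± 0.10 (adjusted p = 0.259). Multiplied by gene length, the FPKM of this table were whole multiples of 1 step and could be turned back into reads, which for Sox21 came to 367 and 407 in controls and 506 and 425 in cKO. With limma-voom on such reads Sox21 was called (0.44), as it was without control 2 (0.45) or without cKO 2 (0.45). Sox2 held 32.6 and 30.9 FPKM in controls and 38.4 and 39.2 in cKO (0.28 ± 0.07, adjusted p = 0.241).

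The other cortical values lay within smaller distances. Sox9 held 5.32 and 6.56 against 7.43 and 6.75 FPKM (0.22 ± 0.12) and Sox1 9.26 and 8.64 against 10.4 and 9.95 (0.17 ± 0.08). Sox3, Sox4, Sox6, Sox8 and Sox11 had log2 fold changes from -0.11 to 0.07. Sox3 varied most within a group, with 8.46 and 5.62 FPKM (343 and 217 reads) in cKO, and Xist was at 0.0177 FPKM in control 1 and at 132 to 189 in the other cortical libraries. SoxC genes made up 84.4% and 85.2% of the summed Sox level in control and 82.3% and 81.2% in cKO cortices. The groups did not overlap for 5 of 9 genes, against 44.8% of all genes. Of the radial glial list 1 gene was called, Nes, the intermediate filament of progenitors, from 23.0 ± 2.5 to 36.5 ± 3.7 FPKM (0.64, adjusted p = 0.126). All 5 meningeal markers were called higher in these cKO cortices, with a sum of 1.17 to 1.80 FPKM in controls and 16.3 to 24.3 in cKO, and the vessel list was at 31.7 to 32.9 in controls and 50.5 to 51.0 in cKO, with Cldn5 and Tek called higher. Microglial Csf1r (0.54) and C1qa (0.94), astrocytic Gja1 (1.60), Pdgfra (0.80) of oligodendrocyte precursors and Aqp1 (0.93) of choroid plexus were called higher too, and the hippocampal markers Zbtb20 (-0.45) and Nr4a3 (-0.61) lower. The median log2 fold change was -0.17 for the astrocyte list and 0.04 for the oligodendrocyte lineage list. The part of these markers in the Sox values was not tested.

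In Rnf2 cKO hippocampi no Sox gene was called by limma, against 2.86% of 15764 genes called higher and 1.85% lower, and limma-voom called none either. Sox1 alone had an unadjusted p under 0.05, with 11.5 and 12.1 FPKM in controls and 14.6 and 14.3 in cKO (0.27 ± 0.11, adjusted p = 0.697). Sox8 held 10.8 and 8.23 against 7.49 and 6.48 FPKM (-0.39 ± 0.16, adjusted p = 0.713), and Sox4 held 78.2 and 98.8 against 102 and 118 (0.31 ± 0.15, adjusted p = 0.727). Both were called without control 2, Sox4 at 0.48 and Sox8 at -0.57. Sox9, the gene with the largest rise in Kdm2b cKO hippocampi, held 14.8 and 14.6 FPKM in Rnf2 controls and 14.0 and 12.6 in the cKO (-0.14 ± 0.11). Sox21 held 6.17 and 5.89 against 5.51 and 4.82 FPKM (-0.19 ± 0.13), and Sox2, Sox3, Sox6 and Sox11 had log2 fold changes from -0.09 to 0.12. Groups did not overlap for 5 of 9 genes, against 38.3% of all genes. Hes1 (0.55, adjusted p = 0.679) and Nfix (0.42, adjusted p = 0.679) were called among the radial glial and NFI lists. Of 5 meningeal markers 3 were called lower, and the sum was 27.3 FPKM in both controls and 12.6 and 19.6 in cKO. Of 7 oligodendrocyte lineage markers 1 was called, the myelin gene Mbp, higher (0.56, adjusted p = 0.679). The median log2 fold change of that list was -0.28, and its sum was 49.1 to 78.5 FPKM in controls and 42.3 to 59.1 in cKO. Egfr, a growth factor receptor of progenitors, was called lower (-0.49, adjusted p = 0.679). The part of these markers in the Sox values was not tested.

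Whether an effect differed from that in Kdm2b cKO hippocampi was tested as an interaction of genotype and table, with an adjusted p under 0.05 over all genes joined. These tests share the hippocampal libraries. The neurosphere effect differed for 6 of 9 genes, against 26.9% of 11563 genes. Sox9 differed most, by -1.27 ± 0.10 (adjusted p = 1.60e-05), since it rose in tissue and fell in culture. Sox8 differed by -1.07 ± 0.17 (adjusted p = 0.00113) and Sox11 by 0.37 ± 0.08 (adjusted p = 0.00649). Sox6 (-0.61 ± 0.18), Sox2 (-0.53 ± 0.14) and Sox3 (-0.51 ± 0.15) also passed, with adjusted p from 0.0195 to 0.0284. For Sox1 the difference was 0.16 (95% interval -0.18 to 0.49) and for Sox21 0.05 (-0.26 to 0.36), which the libraries could not tell from 0. Without neurosphere control 1, the library that stood apart, 3 genes passed (Sox8, Sox9 and Sox11), and with libraries rescaled to the same total 2 passed (Sox8 and Sox9). The Sox2 difference ranged from -0.72 to -0.33 over the fits that left out 1 library, nearest to 0 without neurosphere cKO 1, where the Sox2 change in neurospheres was 0.00. Sox3 and Sox6 each lost the call in 5 of the 10 fits that left out 1 library: Sox3 without hippocampal control 2 or 3, neurosphere control 1 or 2, or neurosphere cKO 2 (values from -0.53 to -0.46), and Sox6 without hippocampal cKO 1 or 2, neurosphere control 1 or 2, or neurosphere cKO 2 (-0.65 to -0.50). Sox4 (-0.35 ± 0.14, adjusted p = 0.0857) passed without hippocampal cKO 3 (-0.43).

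For cortices 0 of 9 genes differed from hippocampi by limma at an adjusted p under 0.05, against 1.74% of 11541 genes, and 5 did at an unadjusted p. Of these Sox9 had the smallest adjusted p (-0.45 ± 0.13, adjusted p = 0.125), and it passed without cortical control 1 (-0.58). The other 4 were Sox1 (-0.38 ± 0.13), Sox3 (-0.50 ± 0.21), Sox6 (-0.50 ± 0.19) and Sox11 (-0.23 ± 0.09), with adjusted p from 0.223 to 0.303. Rnf2 cKO hippocampi differed for 1 of 9 genes, against 0.801% of 12104 genes. That gene was Sox9, by -0.81 ± 0.12 (adjusted p = 0.00984), and it passed under each of the alternative settings and left-out libraries. Sox21 (-0.64 ± 0.16, adjusted p = 0.0843) and Sox6 (-0.60 ± 0.19, adjusted p = 0.161) did not pass.

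**Figure D4:**
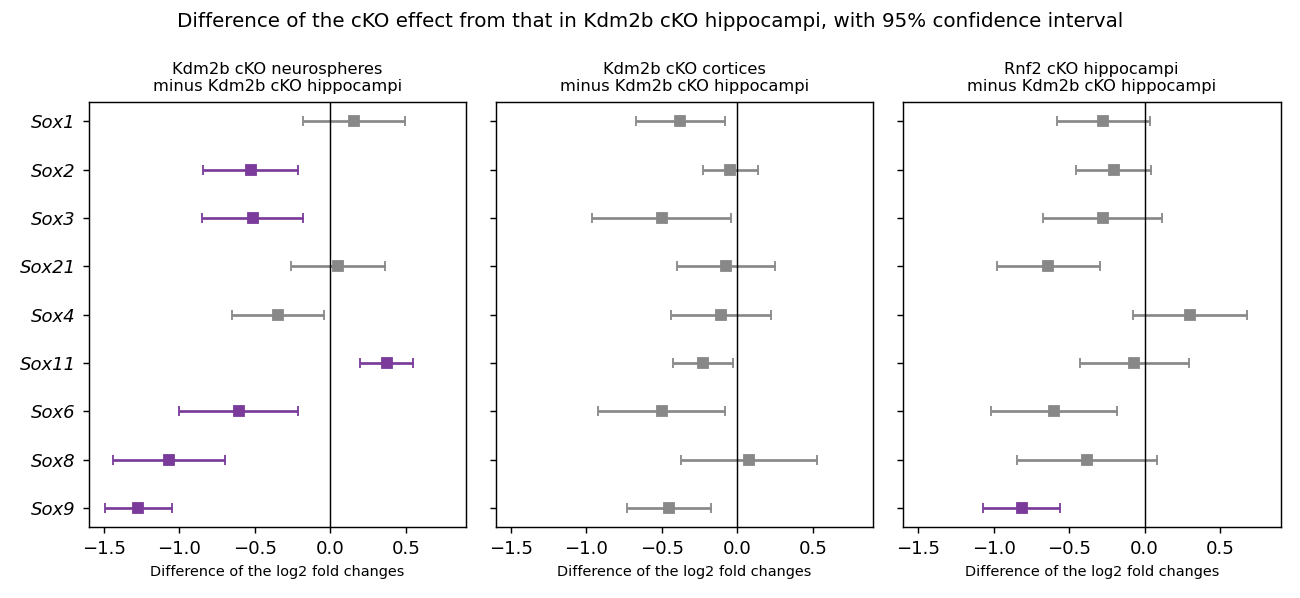
Squares give the cKO effect of each Sox gene in neurospheres, cortices and Rnf2 hippocampi minus that in Kdm2b cKO hippocampi (difference of log2 fold changes, with 95% confidence interval), purple where the adjusted p is under 0.05. Sox9 lies at -1.27 in neurospheres, -0.45 in cortices and -0.81 in Rnf2 hippocampi, and the intervals of Sox1 and Sox21 span 0 in neurospheres.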

How the data were processed

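RNA-seq libraries were made from poly(A)-selected RNA and sequenced as paired ends. For hippocampi and neurospheres the authors trimmed reads with cutadapt, aligned them to mm10 with STAR and estimated FPKM with Cufflinks 2.2.1, which are the deposited values. How the cortical and Rnf2 FPKM were made is not given in the sources used here beyond the submitters' processing notes, which list the same tools for every library. Library groups were read from the labels.

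Unnamed entries did not enter the tests (libraries held 0% to 1.95% of FPKM on them, neurosphere control 1 29.3%). Where a name had several entries, the one with the highest mean was kept. Sox4 had 3 entries in the hippocampal and neurosphere tables, and Sox1 and Sox6 had 2 in the neurosphere table. The largest left out averaged 73.9 FPKM (Sox4, hippocampal), 103 (Sox4 under a joined name, neurosphere) and 20.3 (Sox6, neurosphere). Genes averaging 0.5 FPKM or more over a table entered the test, on log2(FPKM + 1) with limma 3.58.1 in R 4.3.3 (lmFit, eBayes with a trend), each table by itself, and differences between tables as an interaction. The fold and p thresholds have the values used by the study, which set them on fold changes from read counts with another test. Here they were set on log2(FPKM + 1), where the added 1 makes the change of a low gene smaller than its plain ratio. Sox3 in Kdm2b cKO hippocampi stood at 135% of control and had 0.39, and Sox21 in cKO cortices stood at 135% and had 0.37. Calls are therefore not on the scale of the study. Adjusted p are Benjamini-Hochberg values over all genes tested. Reads were recovered from FPKM and gene length in cortical and Rnf2 tables, where 99.7% or more of values were whole within 0.01.

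The Sox genes, the lists (written from general knowledge) and the naming rule, under which up to 4 called genes per list with groups that do not overlap are named, were chosen with earlier results of these data known. Marker genes, further list genes named beside them and the ratios between Sox genes were chosen after their values were seen. The fit was tested on simulated data. Alternatives were another pseudocount, other filters, scalings and variance trends, adjusted p values, summed entries, a replicate block, limma-voom on recovered reads and each library left out in turn. Chromatin data of the study were not used here.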

Additional observations from a re-analysis of the deposited data

Results flagged for a closer look

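For 7 values, the cKO effect of a Sox gene differed between comparisons in a test of the difference itself (limma interaction, adjusted p under 0.05). In neurospheres against Kdm2b cKO hippocampi the differences of the log2 fold changes were -1.27 for Sox9 (0.68 in hippocampi and -0.60 in neurospheres), -1.07 for Sox8 (-0.01 and -1.08), -0.61 for Sox6 (0.51 and -0.10), -0.53 for Sox2 (0.33 and -0.20), -0.51 for Sox3 (0.39 and -0.13) and 0.37 for Sox11 (0.12 and 0.50). In Rnf2 cKO hippocampi against Kdm2b cKO hippocampi the difference was -0.81 for Sox9 (0.68 and -0.14). Over all genes joined, 26.9% differed in neurospheres and 0.801% in Rnf2 hippocampi. With libraries rescaled to equal totals, only Sox8 and Sox9 still passed in neurospheres. Every cKO library of Sox9 lay above its controls in Kdm2b hippocampi (3 of 3) and below them in neurospheres (2 of 2) and Rnf2 hippocampi (2 of 2). Groups did not overlap for 29.2%, 66.4% and 38.3% of all genes in these comparisons, and the Rnf2 change of Sox9 was not called. No group held the 4 libraries needed to look for a single outlying library.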

How the results depend on the processing

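The counts of 4 higher and 0 lower in Kdm2b cKO hippocampi stayed within 1.5 times under all 9 alternative settings, and ranged from 3 to 5 higher when 1 library was left out. With a pseudocount of 0.1 and with libraries rescaled to equal totals 5 were higher, Sox3 being the gene added. In neurospheres 3 were higher under every setting, and 2 were lower except for 1 with libraries rescaled to equal totals. In cortices the count of higher genes was 1 with a pseudocount of 0.1 and with limma-voom, and 0 to 1 with 1 library left out. In Rnf2 hippocampi both counts ranged from 0 to 1 with 1 library left out. The number of genes whose effect differed from hippocampi was 2 for neurospheres with libraries rescaled to equal totals and 3 to 7 with 1 library left out, and 0 to 1 for cortices with 1 library left out. The cause was not tested. With adjusted p values the calls over all genes fell from 742 higher and 358 lower to 58 and 9 in cortices, from 451 and 291 to 0 and 0 in Rnf2 hippocampi, and from 303 to 198 lower in hippocampi. Equal totals changed neurosphere calls lower from 1620 to 830 and differences from hippocampi from 3105 to 1639. Without control 1 the calls higher in cortices went from 742 to 1226, and without a variance trend the Rnf2 differences went from 97 to 59. With 1 library left out, all-gene calls in Rnf2 hippocampi ranged from 278 to 808 higher and from 190 to 772 lower (both highest without control 2), and differences from hippocampi ranged from 88 to 429 for cortices (highest without cortical control 1) and from 26 to 538 for Rnf2 hippocampi (highest without Rnf2 control 2). No log2 fold change of a called Sox gene reversed. Leaving 1 library out of 2 assumes that the lone library varies like the other group.

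With the replicate number as a block, the counts of called Sox genes were 4, 3 and 2 as before in hippocampi (higher) and neurospheres (higher and lower), and 0 in the other tables, and the neurosphere difference of Sox6 no longer passed (-0.61), leaving 5. Over all genes, calls lower in Rnf2 hippocampi went from 291 to 437, and the genes whose effect differed from hippocampi from 201 to 108 for cortices and from 97 to 63 for Rnf2 hippocampi. Deviations of same-numbered hippocampal libraries correlated at 0.049, -0.103 and -0.086 (neurospheres -0.277, cortices -0.053, Rnf2 hippocampi 0.161). In Kdm2b hippocampi no control library correlated best with the cKO library of its own number. With 2 libraries per group, the values for unlike numbers are the same with the sign reversed, so there the check cannot show pairing. The labels do not say whether same-numbered libraries share a litter or batch. Depth is unknown for hippocampi and neurospheres, and in the recovered reads the lowest Sox count was 217 (Sox3, cortical cKO 2).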

Other observations

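Of 10 further Sox genes, none was called in Kdm2b cKO hippocampi, where 7 were tested and 2 had an unadjusted p under 0.05 by limma: Sox13, a SoxD gene, went from 3.59 ± 0.13 to 4.51 ± 0.20 FPKM (log2 fold change 0.26), and Sox7, a SoxF gene of endothelium, from 1.51 ± 0.33 to 0.964 ± 0.143 (-0.35). In cortices 0 of 7 were called and 0 had an unadjusted p under 0.05. In Rnf2 cKO hippocampi Sox7 was called lower, from 2.78 ± 0.46 to 1.43 ± 0.41 FPKM (-0.64, adjusted p = 0.674). Sox12, the third SoxC gene, held 50.5 ± 2.4 FPKM in control hippocampi, below Sox4 and Sox11, and was called in no comparison. Sox14 was listed at 0 in every library.

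The non-coding genes around Sox1 and Sox2 did not pass the threshold where they were tested. Sox2ot held 14.8 ± 3.6 FPKM in control and 14.1 ± 1.0 in Kdm2b cKO hippocampi (-0.05), and 2.57 ± 0.15 and 3.44 ± 0.15 in neurospheres (0.32, adjusted p = 0.123). Sox1ot, listed in the cortical and Rnf2 tables, had log2 fold changes of 0.02 and 0.09.

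Over the 4 comparisons and 9613 genes tested in all of them, the genes nearest to Sox9 by distance between log2 fold changes were Dll3, a Notch ligand (0.57 in hippocampi, -0.55 in neurospheres, 0.16 in cortices and -0.25 in Rnf2 hippocampi), Slc8b1 and S1pr3. Nearest to Sox2 were Agtrap, Irf2 and C77080, and nearest to Sox11 were Zzef1, Hectd2 and Pxylp1.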
